A study of Mus musculus with 2 samples.

Results

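Transcripts of 9 genes that are followed in exhausted T cells (Pdcd1, Tox, Lag3, Tigit, Havcr2, Ctla4, Eomes, Tcf7 and Entpd1) were read in 2 libraries of single cells from mouse liver, made by 3′ droplet sequencing. They were chosen by symbol, and all 9 were among the 32285 genes listed in both libraries. The WT library came from wild-type littermates. The HKO library came from mice that carry loxP-flanked miR-33 alleles and a Cre driven by the albumin promoter, labelled AlbCRE, so that the deletion is aimed at hepatocytes and not at T cells. Mice of both genotypes were male and had received a choline-free high-fat diet (CD-HFD) for 6 months, starting at 8 weeks of age. Each library was 1 pool of 3 livers, in which pelleted hepatocytes and live/dead-sorted non-parenchymal cells were mixed at a 1:1 ratio. With 1 library per genotype no test could be made, and differences between animals cannot be told apart from differences between genotypes. Each interval, given in brackets, is a 95% interval for counting error alone.

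An exhausted T cell is one that has met its antigen for a long time and has lost part of its effector function. It carries several inhibitory receptors at once, among them PD-1 (encoded by Pdcd1), LAG-3, TIGIT, TIM-3 (Havcr2) and CTLA-4. The nuclear factor TOX sustains this state, the T-box factor EOMES accompanies its later stages, TCF-1 (Tcf7) marks the less differentiated cells that renew the pool, and the ectonucleotidase CD39 (Entpd1) is found on the most differentiated ones. In fatty liver disease, liver-resident T cells with PD-1 are known to accumulate. PD-1, TOX, TIGIT and CTLA-4 are also carried by activated, regulatory or innate-like T cells, so no transcript of the 9 defines an exhausted cell on its own.

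The microRNA whose gene is deleted in HKO hepatocytes is shown because its deletion, brought about by the Cre, defines the HKO library (RefSeq, GRCm38.p6, chromosome 15, 82198127 to 82198147, plus strand). Its seed, bases 2 to 8, is in capitals. Such a short RNA is not captured by this assay, so the deletion itself was not measured here.
mmu-miR-33-5p: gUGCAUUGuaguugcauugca

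Within the 20 sub-clusters of barcodes with markers other than those of hepatocytes, 7 were T and NK-like, with 215 WT and 809 HKO barcodes. Members were left out of the genes used for clustering. A barcode was called T when it held a UMI of Cd3d, Cd3e, Cd3g or Trac, or at least 2 UMIs of Trbc1 and Trbc2 (the T core genes). A T barcode with a UMI of Cd8a or Cd8b1 was called Cd8-positive T, and one without was called other T. This gave 54 WT and 194 HKO Cd8-positive T barcodes, and 87 WT and 354 HKO other T barcodes, after 7 WT and 11 HKO T barcodes with markers of another cell class had been left out. Only 8 WT and 23 HKO barcodes had no T core gene and at least 2 NK genes, too few to describe as a population. A further 55 WT and 221 HKO barcodes of the T and NK-like sub-clusters had no T core gene and did not meet the NK rule. Depth differed: the median was 7114 UMIs in WT and 2760 in HKO Cd8-positive T barcodes, and 6203 and 2426 in other T barcodes. Cd8a had 123 WT and 221 HKO UMIs in the Cd8-positive T class, and Cd8b1 had 107 and 270. At lower depth a Cd8 or T receptor transcript is missed more often, so the other T class can hold Cd8 T cells.

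Free RNA from hepatocytes made up a large share of these barcodes. Scaled by albumin (Alb), it came to 46.3% of UMIs in WT and 29.9% in HKO Cd8-positive T barcodes, and to 47.1% and 30.1% in other T barcodes. Each level is therefore given as UMIs per 1000000 UMIs (CPM) and, as a second scale, with hepatocyte RNA taken out of the denominator (outside hepatocyte RNA). Moving to the second scale shifted the median log2 ratio of HKO over WT over the 8821 genes measured in Cd8-positive T barcodes from -0.0030 to -0.39. In other T barcodes it shifted the median over 10055 genes from 0.028 to -0.38. A member's distance from that median was the same on both scales.

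Apart from Tox, the members were nearly absent from hepatocyte RNA. Pdcd1 was in 0.0985% of 2030 WT hepatocyte-like barcodes (median 19702 UMIs) and in 0 of 3904 HKO ones (median 3936 UMIs). Over all members but Tox, the highest share there was 3.35%, for Tcf7 in WT. Free RNA accounted for at most 0.505 UMIs of any such member in Cd8-positive T barcodes of either library. Tox was found in 27.3% of WT and 11.2% of HKO hepatocyte-like barcodes, at 58.7 and 55.4 CPM. These are low beside the T cell levels given next, and free RNA accounted for 4.10 of 637 WT and 6.92 of 1377 HKO Tox UMIs in the Cd8-positive T class.

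The 5 inhibitory receptors together were higher in HKO than in WT in Cd8-positive T barcodes. They summed to 103 UMIs in WT and 389 in HKO, which is 272 (222 to 329) and 661 (597 to 730) CPM, a ratio of 2.43 (1.95 to 3.05). Outside hepatocyte RNA the levels were 506 (413 to 613) and 943 (852 to 1042), a ratio of 1.86 (1.50 to 2.34). The same sum in other T barcodes was 358 CPM in each library, from 201 WT and 345 HKO UMIs, and the ratio of 1.00 (0.838 to 1.20) became 0.756 (0.634 to 0.904) outside hepatocyte RNA. The contrast between these classes depended on how barcodes were assigned. With marker genes alone and no clusters, the ratio of the sum in other T barcodes was 2.35. That setting enlarged the WT class far more than the HKO one, and the part of the added barcodes in this ratio was not tested. In the barcodes of the T and NK-like sub-clusters without a T core gene the ratio of the sum was 2.46 (1.74 to 3.56), and 1.67 (1.18 to 2.41) outside hepatocyte RNA.

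**Figure D1:**
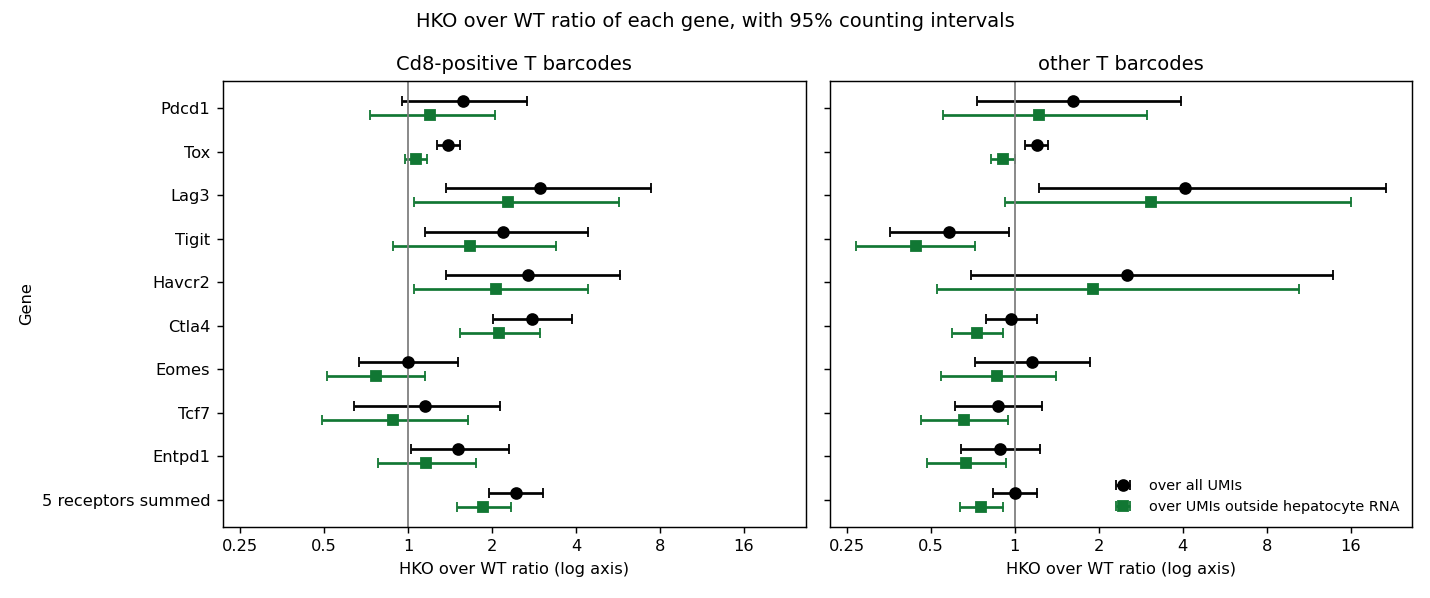
HKO over WT ratio of each gene and of the 5 receptors summed (log axis), in Cd8-positive T barcodes (left) and other T barcodes (right). Circles are ratios over all UMIs, squares are ratios over UMIs outside hepatocyte RNA, bars are 95% counting intervals, and the grey line marks no difference. In Cd8-positive T barcodes the receptor sum lies at 2.43 and 1.86, and in other T barcodes at 1.00 and 0.756.

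Ctla4, the receptor that competes with CD28 for its ligands, had the most UMIs of the 5. It had 48 UMIs in WT and 206 in HKO in Cd8-positive T barcodes, or 127 and 350 CPM, and the ratio was 2.77 (2.01 to 3.87). The ratio outside hepatocyte RNA was 2.12 (1.54 to 2.97). Other T barcodes had 150 and 250 UMIs, or 267 and 259 CPM, with ratios of 0.971 (0.790 to 1.20) and 0.734 (0.597 to 0.905). The highest single barcode held 7 of the WT and 10 of the HKO transcripts in the Cd8-positive T class, and 17 and 8 in the other T class.

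Havcr2, whose product TIM-3 is also found on myeloid cells, and Lag3, whose product binds MHC class II, were scarce and were both higher in HKO Cd8-positive T barcodes. Havcr2 had 11 WT and 46 HKO UMIs there, or 29.0 (14.5 to 51.9) and 78.2 (57.2 to 104) CPM. Its ratio was 2.69 (1.37 to 5.77), and 2.06 (1.05 to 4.42) outside hepatocyte RNA. Lag3 had 8 and 37 UMIs, or 21.1 (9.11 to 41.6) and 62.9 (44.3 to 86.7) CPM. Its ratio was 2.98 (1.37 to 7.41), and 2.28 (1.05 to 5.68) outside hepatocyte RNA. WT had 3 UMIs of each in other T barcodes, against 13 of Havcr2 and 21 of Lag3 in HKO. The ratios were 2.52 (0.694 to 13.8) for Havcr2 and 4.08 (1.22 to 21.4) for Lag3, and the latter was 3.08 (0.921 to 16.1) outside hepatocyte RNA. Without the highest barcode of each library, the Havcr2 ratio was 4.11 (1.73 to 11.9) in Cd8-positive T barcodes and 5.77 (0.821 to 251) in other T barcodes.

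Tigit, which shares its ligands with the activating receptor CD226, lay on opposite sides of 1 in the T cell classes. Cd8-positive T barcodes had 13 UMIs in WT and 44 in HKO, or 34.3 and 74.8 CPM, and their ratio was 2.18 (1.15 to 4.41). Outside hepatocyte RNA this ratio was 1.67 (0.884 to 3.38), whose interval includes 1. Other T barcodes had 36 UMIs in each library, or 64.1 and 37.4 CPM. The ratio there was 0.583 (0.357 to 0.952), and 0.441 (0.270 to 0.720) outside hepatocyte RNA. A single WT barcode held 8 of those 36 UMIs, and without the highest barcode of each library the ratio was 0.695 (0.409 to 1.19). Thinned to 1000 UMIs a barcode it was 0.913. The share of other T barcodes with Tigit was 4.93% in WT and 4.49% in HKO after that thinning, and 5.53% and 3.84% after thinning to 600 UMIs outside hepatocyte RNA. With marker genes alone and no clusters, which enlarged the WT class far more than the HKO one, the ratio turned to 1.46 (0.896 to 2.37). The make-up of the class also differed: sub-cluster 16, with 1 WT and 4 HKO UMIs of Tigit, held 14.9% of WT and 29.9% of HKO other T barcodes. Within sub-clusters 0 and 7, which held the most Tigit UMIs, the ratios were 1.15 (0.675 to 2.01) and 1.18 (0.676 to 2.12) over barcodes of all classes. Outside hepatocyte RNA these ratios were 0.920 (0.539 to 1.61) and 0.735 (0.419 to 1.32). The part of the make-up in the ratio of other T barcodes was not tested.

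Pdcd1 itself was not separated between the libraries by its counts in either T cell class. It had 23 WT and 56 HKO UMIs in Cd8-positive T barcodes, or 60.7 (38.5 to 91.0) and 95.2 (71.9 to 124) CPM. The ratio was 1.57 (0.950 to 2.67), and 1.20 (0.728 to 2.05) outside hepatocyte RNA. It had 9 and 25 UMIs in other T barcodes, with a ratio of 1.62 (0.731 to 3.94). Its level in Cd8-positive T over other T barcodes was 3.78-fold (1.69 to 9.29) in WT and 3.67-fold (2.25 to 6.13) in HKO.

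**Figure D2:**
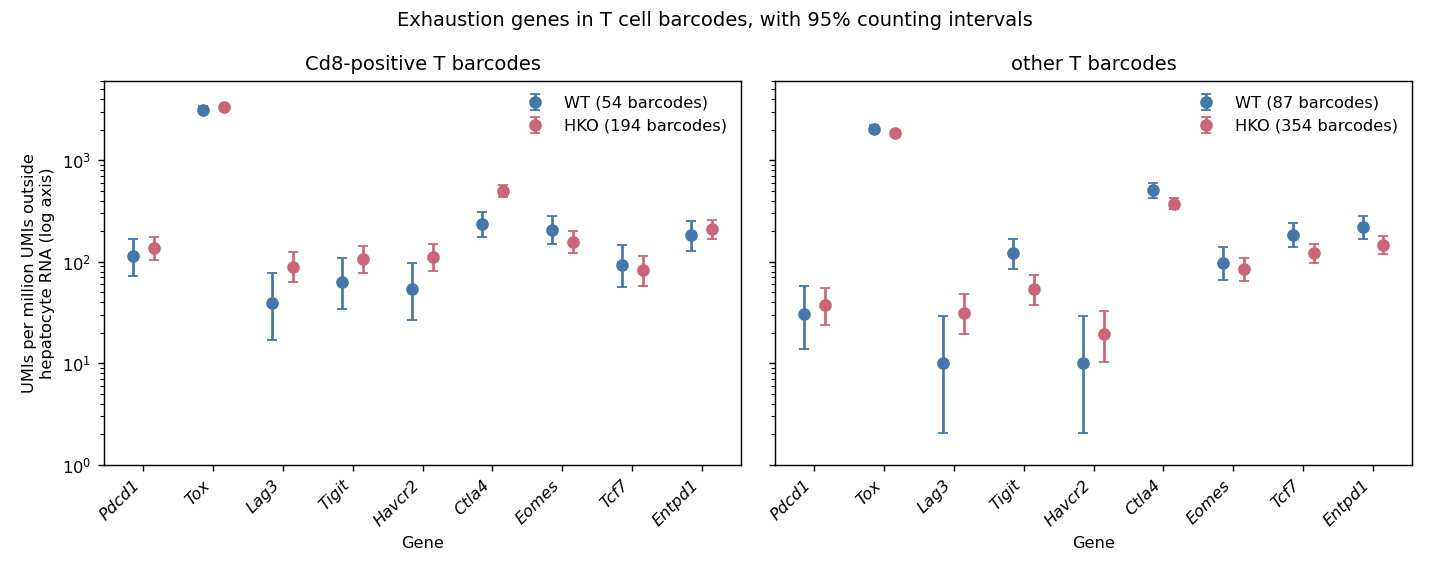
UMIs per 1000000 UMIs outside hepatocyte RNA (log axis) for each gene in Cd8-positive T barcodes (left, 54 WT and 194 HKO) and other T barcodes (right, 87 WT and 354 HKO). Points are the summed level of a library and bars are 95% counting intervals. Ctla4 lies at 236 in WT and 499 in HKO on the left, and at 505 and 371 on the right.

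Tox had the most UMIs of the 9 members in both T cell classes and both libraries. Cd8-positive T barcodes held 637 WT and 1377 HKO UMIs of Tox, or 1680 (1552 to 1816) and 2340 (2218 to 2467) CPM. The ratio of 1.39 (1.27 to 1.53) became 1.07 (0.971 to 1.17) outside hepatocyte RNA. Its ratio in other T barcodes, 1.20 (1.09 to 1.32), became 0.906 (0.821 to 1.000). The direction for Tox in other T barcodes therefore depended on the scale, and with every barcode weighted equally the ratio was 1.48. Tox reads can come from any part of a gene that spans 6686353 to 6991557 on chromosome 4 (GRCm38), and whether intronic reads were counted was not given in the sources used here.

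Eomes and Entpd1 showed no difference that held on both scales in Cd8-positive T barcodes. Eomes had 42 WT and 65 HKO UMIs there, or 111 and 110 CPM, with ratios of 0.997 (0.666 to 1.51) and 0.764 (0.511 to 1.15). Entpd1 had 37 and 87 UMIs, or 97.6 and 148 CPM, with ratios of 1.51 (1.02 to 2.29) and 1.16 (0.782 to 1.75). Other T barcodes had 29 and 57 UMIs of Eomes, a ratio of 1.15 (0.720 to 1.86) and of 0.866 (0.545 to 1.40) outside hepatocyte RNA. Entpd1 had 65 and 99 UMIs in that class. Its ratio was 0.887 (0.643 to 1.23), and 0.671 (0.486 to 0.932) outside hepatocyte RNA.

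Tcf7, the factor of naive, memory and self-renewing T cells, had 19 WT and 34 HKO UMIs in Cd8-positive T barcodes, or 50.1 and 57.8 CPM. The ratio was 1.15 (0.639 to 2.14), and 0.884 (0.490 to 1.64) outside hepatocyte RNA. Other T barcodes had 55 and 82 Tcf7 UMIs, with ratios of 0.869 (0.610 to 1.25) and 0.657 (0.461 to 0.942). Its distribution among sub-clusters is given further on.

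All 9 members had at least 10 UMIs over both libraries in both T cell classes. Lag3, Tigit, Havcr2 and Ctla4, 4 of the 9, were higher in HKO by 2-fold or more in Cd8-positive T barcodes, beside 7.99% of all 8821 genes measured. None of the 9 was lower by as much, beside 8.16%. Lag3 and Havcr2, 2 of the 9, passed 2-fold upwards in other T barcodes, beside 6.56% of 10055 genes, and none passed it downwards, beside 7.34%. With at least 30 UMIs required, 0 of 7 passed upwards there, beside 195 of 6900 genes. Outside hepatocyte RNA, Tigit at 1.67 no longer passed 2-fold in Cd8-positive T barcodes, and in other T barcodes Havcr2 at 1.91 did not pass while Tigit at 0.441 passed downwards. The share of all genes past 2-fold was not counted on that scale. Its median log2 ratio over all genes lay at -0.39 in Cd8-positive T and -0.38 in other T barcodes. The median log2 ratio of the 9 was 0.65 in Cd8-positive T barcodes, and 0.27 outside hepatocyte RNA. In other T barcodes it was 0.20 and turned to -0.21, or to -0.042 with at least 30 UMIs on the scale of all UMIs. In NK barcodes only Tox reached 10 UMIs. From 21 WT and 50 HKO UMIs its ratio was 2.15 (1.27 to 3.77), where 18.6% of 1761 genes passed 2-fold upwards and 13.2% downwards. Outside hepatocyte RNA the Tox ratio in NK barcodes was 1.41 (0.834 to 2.48).

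The 5 receptors summed were lower in NK barcodes than in either T cell class of the same library on the scale of all UMIs, while the single receptors had too few UMIs there to be placed. WT had 0 of their UMIs in 39676, which allows up to 75.6 CPM by the limit of 3 counts, beside 272 in Cd8-positive T and 358 in other T barcodes. HKO had 6 in 4 of 23 barcodes, 4 of Ctla4 and 2 of Tigit, or 137 (50.2 to 298) CPM, beside 661 and 358. Outside hepatocyte RNA the HKO level was 254 (93.2 to 553) in NK and 512 (460 to 569) in other T barcodes, whose intervals overlap. With the WT count put at 3, the ratio of the receptor sum was 1.81 with a lower counting limit of 1.06, and outside hepatocyte RNA it was 1.19 with a lower limit of 0.699. Pdcd1, Lag3 and Havcr2 were at 0 in the NK barcodes of both libraries. Eomes, which NK cells use, had 1 UMI in WT and 5 in HKO, with a ratio of 4.52 (0.506 to 214). In the whole sub-cluster led by Ncr1 and Klra genes (27 WT and 79 HKO barcodes), Pdcd1 and Havcr2 were again at 0, Ctla4 had 6 and 32 UMIs, and Tox had 172 and 355. T core genes were also found there, and 20 WT and 56 HKO of its barcodes were T by rule.

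After thinning to 1000 UMIs a barcode the shares of Cd8-positive T barcodes with Pdcd1, Tox, Eomes or Entpd1 changed their order between the libraries, and those of the other members kept it. As counted, Pdcd1 was in 29.6% (18.0% to 43.6%) of WT and 19.1% (13.8% to 25.3%) of HKO Cd8-positive T barcodes. Thinned, these shares were 5.84% and 8.38%. Ctla4 was in 37.0% and 44.8% as counted, and in 10.7% and 25.3% after thinning. Eomes went from 48.1% and 24.7% to 10.3% and 10.8%, Entpd1 from 40.7% and 30.4% to 8.54% and 13.7%, and Tcf7 from 24.1% and 10.8% to 4.67% and 4.62%. Tox was in 90.7% of WT and 82.5% of HKO Cd8-positive T barcodes as counted, and in 65.1% and 70.9% after thinning. The thinned shares of Lag3 were 1.79% and 5.92% and those of Tigit 3.25% and 6.79%. Thinned instead to 600 UMIs outside hepatocyte RNA, Pdcd1 was in 6.48% and 7.34%, Havcr2 in 2.63% and 4.95%, Ctla4 in 11.7% and 22.7%, and Tox in 67.6% and 67.9%, while Eomes kept the order of the counted shares, at 11.4% and 9.36%. No order of the genotypes was read from the unthinned shares.

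Receptors were found together in HKO Cd8-positive T barcodes more often than their separate shares give, with few barcodes behind each pair. Havcr2 and Lag3 were both present in 9 barcodes, where their shares, taken apart in the deeper and the shallower barcodes, gave 3.46. Tigit and Havcr2 were together in 9, against 4.28, and Lag3 and Tigit in 9, against 4.21. Pdcd1 was together with Havcr2 in 10 against 5.28, with Tigit in 10 against 6.14 and with Lag3 in 9 against 5.05. Ctla4 was together with Lag3 in 21 against 11.8. All 10 pairs of receptors were found more often than their shares gave in the HKO library. In WT 7 of the 10 pairs were, from small counts: Pdcd1 and Havcr2 were together in 4 barcodes against 2.07, and Lag3 and Tigit in 0 against 1.11.

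**Figure D3:**
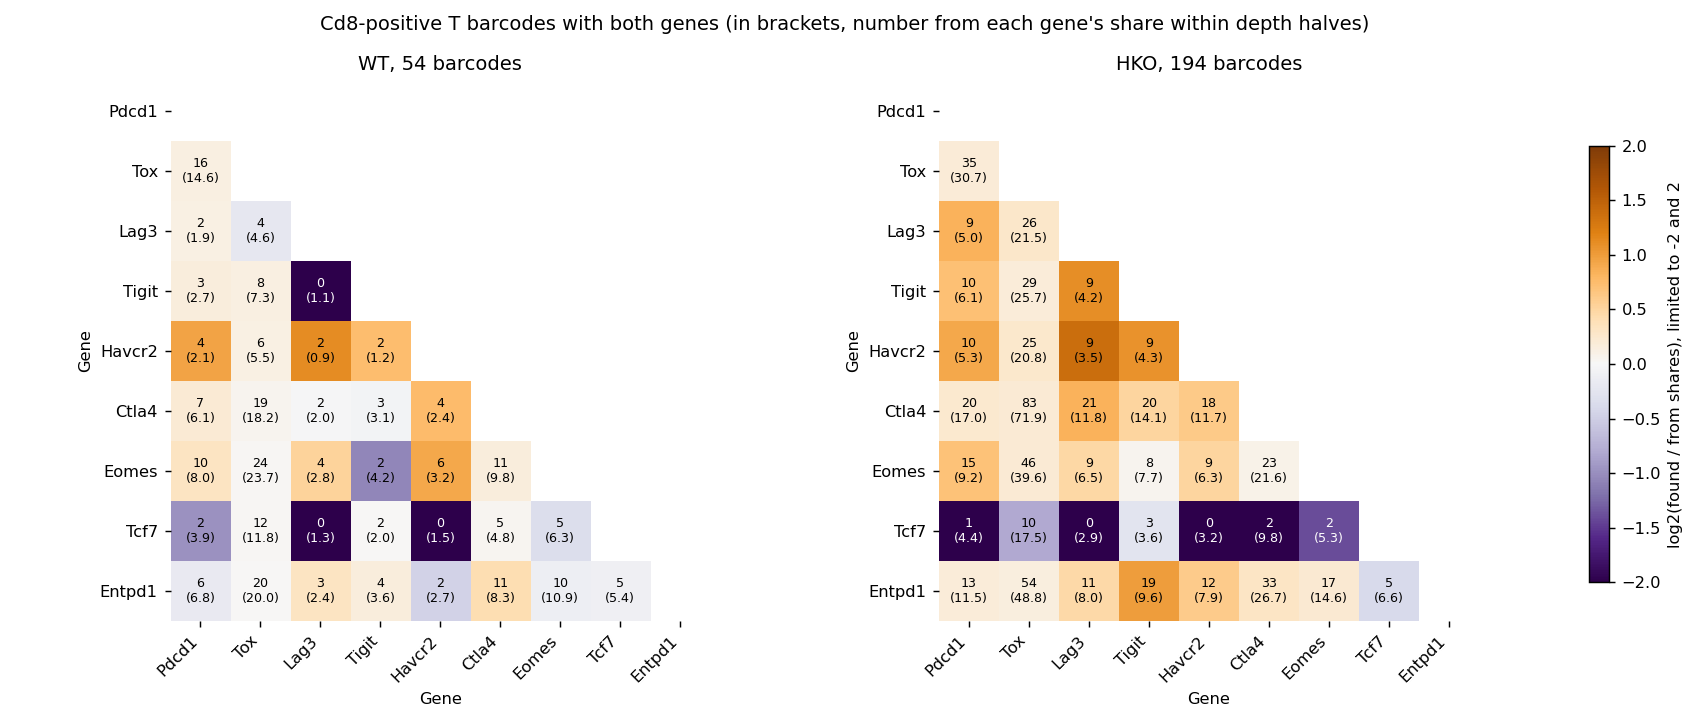
Number of Cd8-positive T barcodes that held both genes of a pair, in WT (left) and HKO (right), with the number that the 2 shares give within the deeper and the shallower barcodes in brackets. Colour is the log2 of found over given, cut off at 2 in either direction, so that pairs with 0 barcodes are at the lower end. In HKO the receptor pairs are orange and the Tcf7 row is purple for all genes, from 3 found against 3.59 with Tigit to 0 found with Lag3 and Havcr2.

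Barcodes with several receptors were a minority. Among HKO Cd8-positive T barcodes 76 of 194 had none of the 5, 63 had 1, 33 had 2, 14 had 3, 5 had 4 and 3 had all 5. Spread independently over barcodes, the receptors would have given 10.1 barcodes with 3, 1.10 with 4 and 0.0458 with 5. At least 2 were in 55 barcodes, beside 54.5 by that reckoning, so the excess lay at 3 or more and at 0, where 54.9 would be found. In WT 19 of 54 had none, 22 had 1, 8 had 2, 3 had 3 and 2 had 4. Among other T barcodes 34 of 354 in HKO (9.60%, 6.74% to 13.2%) and 18 of 87 in WT (20.7%, 12.7% to 30.7%) had at least 2 receptors, at different depths. Median UMIs in HKO Cd8-positive T barcodes were 2650 with 0 receptors, 2785 with 2 and 3360 with 5.

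Cd8-positive T barcodes with Pdcd1 were rich in Tox and, in HKO, poor in Tcf7. All 16 WT and 35 of 37 HKO Cd8-positive T barcodes with Pdcd1 also held Tox, and their Tox level was 2.13 (1.82 to 2.49) times that of barcodes without Pdcd1 in WT and 1.59 (1.41 to 1.79) times in HKO. Havcr2 was 10.0 times (2.08 to 95.5) as high in WT barcodes with Pdcd1 as in those without, from 9 and 2 UMIs, and 1 barcode held 5 of the 9. In HKO it was 2.92 times (1.55 to 5.44) as high. Ctla4 was 0.919 times (0.456 to 1.76) as high in WT and 2.00 times (1.48 to 2.68) in HKO. Eomes was 1.52 times (0.769 to 2.92) as high in WT and 2.08 times (1.19 to 3.54) in HKO. Tcf7 was present in 2 of 16 WT and 1 of 37 HKO barcodes with Pdcd1, a level of 0.263 (0.0294 to 1.11) and 0.115 (0.00283 to 0.688) times that of barcodes without. Depth differed little between these barcodes, with a median of 7425 UMIs with and 7040 without Pdcd1 in WT, and 2910 and 2690 in HKO. Tox was also higher in other T barcodes with Pdcd1 than in those without, by 2.23-fold (1.76 to 2.80) in WT and 3.81-fold (3.26 to 4.43) in HKO.

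Lag3 and Havcr2 were at 0 in the Cd8-positive T barcodes with Tcf7 of both libraries, 13 in WT and 21 in HKO. Relative to Tcf7-negative barcodes, the upper counting limits were 1.78 for Lag3 and 1.21 for Havcr2 in WT, and 0.728 and 0.579 in HKO. The counts of 0 in WT thus do not separate barcodes with Tcf7 from those without. Tigit was in 2 of the 13 and 3 of the 21, and Pdcd1 in 2 and 1. In HKO, Ctla4 was in 2 and Eomes was in 2. Their Ctla4 level was 0.068 (0.00818 to 0.249) times that of Tcf7-negative barcodes, and their Tox level was 0.366 (0.283 to 0.467) times. In WT, Ctla4 was in 5 and Eomes in 5, and the Ctla4 level was 1.38 times (0.698 to 2.62) and the Tox level 0.788 times (0.645 to 0.957) that of the others. Tcf7 stood with at least 1 receptor in 8 of 54 WT (14.8%, 6.62% to 27.1%) and 6 of 194 HKO barcodes (3.09%, 1.14% to 6.61%). These shares are unthinned. The Ctla4 level of other T barcodes with Tcf7 was 0.337 times (0.196 to 0.547) that of the others in WT and 0.383 times (0.245 to 0.576) in HKO. Tigit there was 0.211 times (0.0414 to 0.673) as high with Tcf7 in WT and 0.0942 times (0.00232 to 0.560) in HKO. Pdcd1 was in 0 of 27 WT and 4 of 66 HKO other T barcodes with Tcf7, the latter at 0.824 times (0.242 to 2.26) the level of those without.

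Most NK cell genes were lower in HKO than in WT in the Cd8-positive T class, and Gzma was higher. Of the 11 NK markers, 9 were found in WT and 8 in HKO, and their sum was 1295 (1183 to 1415) and 1191 (1105 to 1283) CPM. Of the 12 genes of the NK rule 10 were measured, and 7 were lower with an interval that excludes 1, among them Ncr1 with 21 WT and 0 HKO UMIs. In the marker sum Klra9 had 64 UMIs in WT and 16 in HKO, with a ratio of 0.161 (0.0869 to 0.282), and Klre1 had 45 and 24, a ratio of 0.344 (0.200 to 0.576). Gzma, in both lists, gave 72 of the 491 WT and 301 of the 701 HKO UMIs of the sum, a ratio of 2.69 (2.08 to 3.53). The sub-cluster led by Ncr1 and Klra genes held 10 of 54 WT (18.5%) and 8 of 194 HKO (4.12%) Cd8-positive T barcodes. Without that sub-cluster the receptor sum of the class had a ratio of 2.23 (1.78 to 2.83), Ctla4 2.47 (1.78 to 3.49), Havcr2 2.27 (1.16 to 4.85), Lag3 2.79 (1.22 to 7.42) and Tigit 2.98 (1.39 to 7.33). That setting was chosen with these values known, as were the NK genes named here. In other T barcodes the sum of the NK markers was higher in HKO, at 1578 (1500 to 1660) CPM against 1110 (1024 to 1200) in WT. Klra9 was lower in HKO there too, at a ratio of 0.245 (0.128 to 0.451).

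Every member but Tcf7 had most of its UMIs in 2 of the 7 T and NK-like sub-clusters, 0 and 7. Sub-cluster 0 (38 WT and 151 HKO barcodes) was led by Pdcd1, Ccl5, Gzmk and Cd8b1, and 52 of its 189 barcodes were other T by rule. It held 24 WT and 63 HKO UMIs of Pdcd1, at 86.4 and 146 CPM, against at most 10 and 17 in any other of the 7. Sub-cluster 7 (44 and 179 barcodes) was led by Tigit and Ikzf2, and 24 WT and 103 HKO of its barcodes had no T core gene. It had the highest Tox level, 2751 WT and 4260 HKO CPM. Sub-clusters 16, with Cd40lg and Il7r, and 17, with Il23r, Lef1 and Il7r, had no Lag3 UMI in either library. They had the highest Tcf7 levels, 91.5 and 190 CPM in WT and 135 and 156 in HKO.

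**Figure D4:**
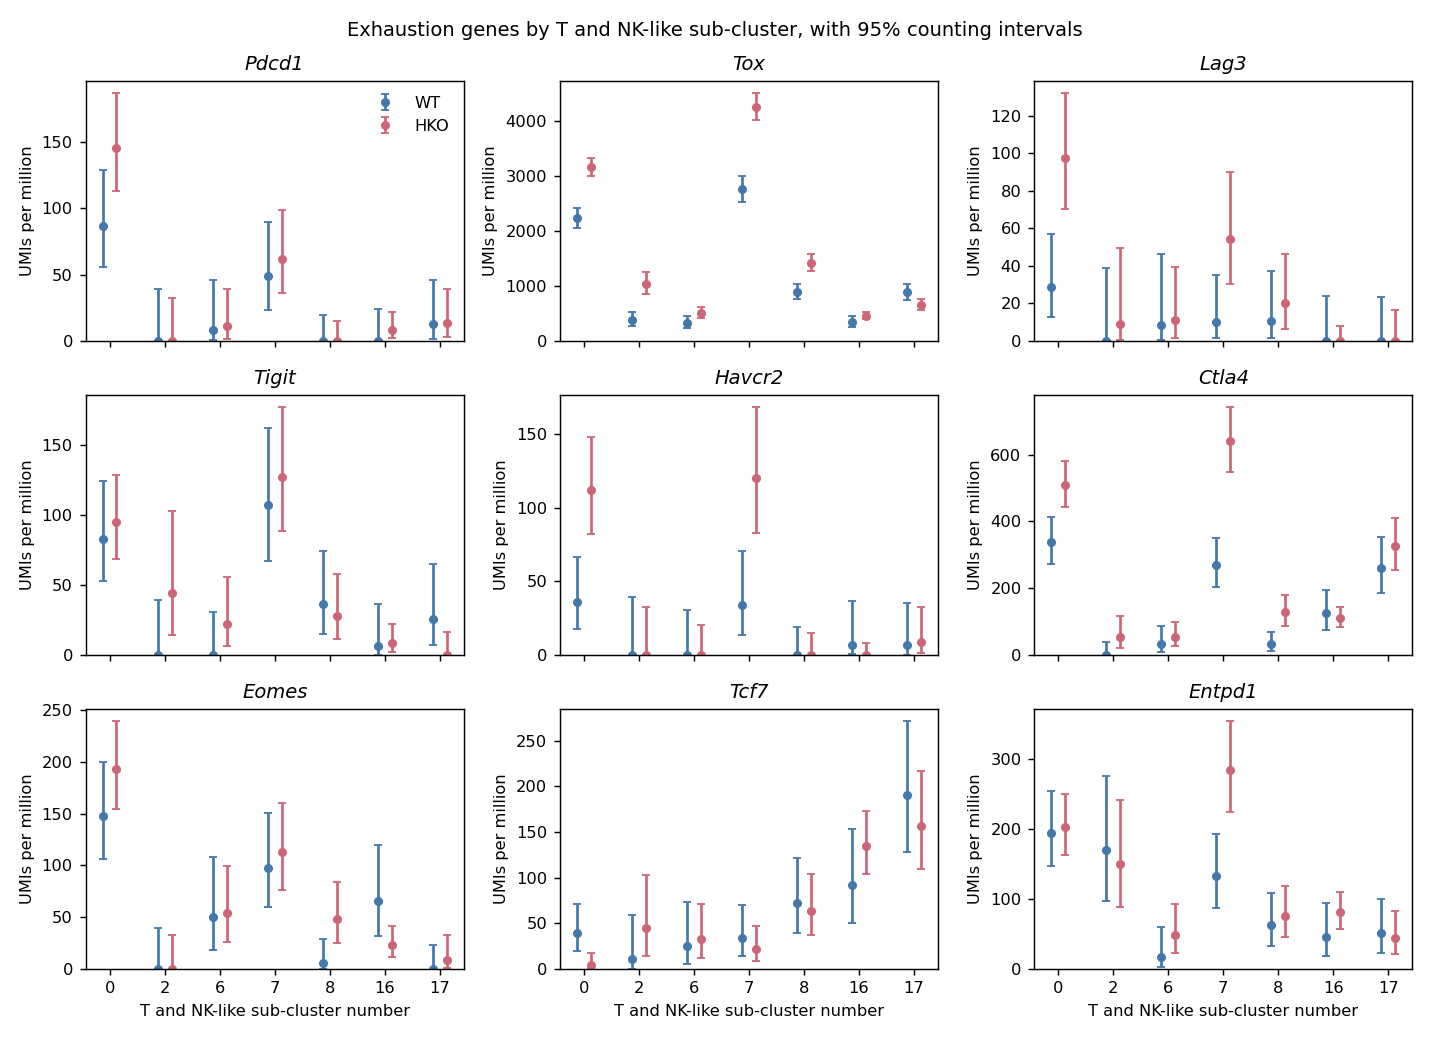
UMIs per 1000000 UMIs of each gene (1 panel a gene, each with its own linear axis) in the 7 T and NK-like sub-clusters, for WT (blue) and HKO (red), with 95% counting intervals. Pdcd1, Lag3, Havcr2 and Eomes are highest in sub-clusters 0 and 7 in HKO, and Tcf7 is highest in 16 and 17.

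Within sub-cluster 0, picked for its Cd8 level with the data known, the receptor sum had 159 WT and 413 HKO UMIs. Its ratio of 1.68 (1.39 to 2.03) was 1.34 (1.11 to 1.62) outside hepatocyte RNA. Pdcd1 had 24 and 63 UMIs, with ratios of 1.69 (1.04 to 2.84) and 1.35 (0.834 to 2.27). Lag3 had 8 and 42 UMIs, a ratio of 3.39 (1.57 to 8.36), and 2.71 (1.26 to 6.68) outside hepatocyte RNA. Havcr2 had 10 and 48, a ratio of 3.10 (1.55 to 6.87), and 2.48 (1.24 to 5.49). Ctla4 had 94 and 219, and its ratio of 1.50 (1.18 to 1.94) was 1.20 (0.940 to 1.55) outside hepatocyte RNA. Tigit had 23 and 41, with ratios of 1.15 (0.675 to 2.01) and 0.920 (0.539 to 1.61). The ratios of Ctla4 and Tigit thus lay below those of the whole Cd8-positive T class, 2.77 and 2.18, while those of Lag3 and Havcr2 did not. These differences between groupings of barcodes were not tested.

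Tcf7 was lower in HKO there. In sub-cluster 0 it had 11 UMIs in 7 of 38 WT barcodes and 2 UMIs in 2 of 151 HKO barcodes, or 39.6 and 4.65 CPM. The ratio was 0.117 (0.0126 to 0.538), and 0.0938 (0.0101 to 0.430) outside hepatocyte RNA. In sub-cluster 16 it had 14 and 64 UMIs, or 91.5 and 135 CPM, with a ratio of 1.48 (0.821 to 2.86). Of all Tcf7 UMIs in T and NK-like barcodes, 85 in WT and 135 in HKO, most lay outside sub-cluster 0 in both libraries. Within sub-cluster 7 the Ctla4 ratio was 2.38 (1.75 to 3.29), and 1.48 (1.09 to 2.04) outside hepatocyte RNA.

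The promoters of Pdcd1, Ctla4 and Havcr2 are shown because these receptors were found together in barcodes and 2 of them were higher in HKO Cd8-positive T barcodes on both scales. Each is the 250 bases before the RefSeq start (GRCm38.p6), 5′ to 3′ on the strand of the gene. Capitals mark GGAAA on either strand, the core that NFAT factors bind, and TGTGGT on either strand, the core that RUNX factors bind. These motifs do not overlap in the stretches shown. Entries for Tox and Lag3 were not used here.
Pdcd1, chr1:94052554-94052803, minus strand: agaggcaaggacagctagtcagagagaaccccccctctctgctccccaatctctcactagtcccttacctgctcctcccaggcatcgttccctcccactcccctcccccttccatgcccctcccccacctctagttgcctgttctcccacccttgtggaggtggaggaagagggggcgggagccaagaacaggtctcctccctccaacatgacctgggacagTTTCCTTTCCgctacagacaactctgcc
Ctla4, chr1:60908775-60909024, plus strand: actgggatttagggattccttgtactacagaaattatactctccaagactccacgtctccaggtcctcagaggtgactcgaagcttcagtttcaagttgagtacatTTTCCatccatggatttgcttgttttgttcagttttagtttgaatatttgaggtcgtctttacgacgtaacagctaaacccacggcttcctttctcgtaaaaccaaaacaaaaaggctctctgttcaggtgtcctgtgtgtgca
Havcr2, chr11:46454681-46454930, plus strand: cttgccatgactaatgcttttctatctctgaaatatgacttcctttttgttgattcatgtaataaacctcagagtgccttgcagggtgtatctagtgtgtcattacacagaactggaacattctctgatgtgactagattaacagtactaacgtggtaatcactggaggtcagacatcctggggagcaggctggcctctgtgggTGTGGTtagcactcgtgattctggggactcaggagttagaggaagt
GGAAA was in 55.6% and TGTGGT in 14.0% of the 32851 promoter windows of the same length. Pdcd1 held GGAAA at 2 places, Ctla4 at 1 and Havcr2 at 0, and Havcr2 held TGTGGT at 1. A match is a description of the letters only.

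Outside T and NK-like barcodes the members were restricted in different ways. Pdcd1 did not exceed 6.86 CPM in any other named class. Ctla4 reached 105 WT and 91.0 HKO CPM in B and plasma-like barcodes, from 24 UMIs in 3 of 34 and 43 UMIs in 14 of 199 barcodes. Havcr2 was present at 88.3 WT and 61.7 HKO CPM in monocyte and dendritic-like barcodes and at 16.6 and 20.7 in macrophage-like ones. Entpd1 was above its T cell level in macrophage-like barcodes, at 230 WT and 326 HKO CPM against 104 and 130 in T and NK-like ones. It was higher still in the 3 WT and 29 HKO neutrophil-like barcodes, at 711 and 568. Of 12 macrophage markers, 9 were found in WT and 8 in HKO Cd8-positive T barcodes, and summed to 60.7 (38.5 to 91.0) and 37.4 (23.4 to 56.6) CPM. The 12 monocyte and dendritic markers summed to 269 (219 to 327) and 134 (106 to 167) CPM there, from 6 and 5 genes found. Genes of MHC class II, which antigen-presenting cells express, went the other way in the same barcodes: H2-Aa went from 4 UMIs in WT to 25 in HKO, at a ratio of 4.03 (1.39 to 15.9), H2-Ab1 had 2 and 19, and H2-Eb1 had 2 and 25. They were named after their values were seen. The part of such RNA in the Havcr2 and Entpd1 levels was not tested.

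**Figure D5:**
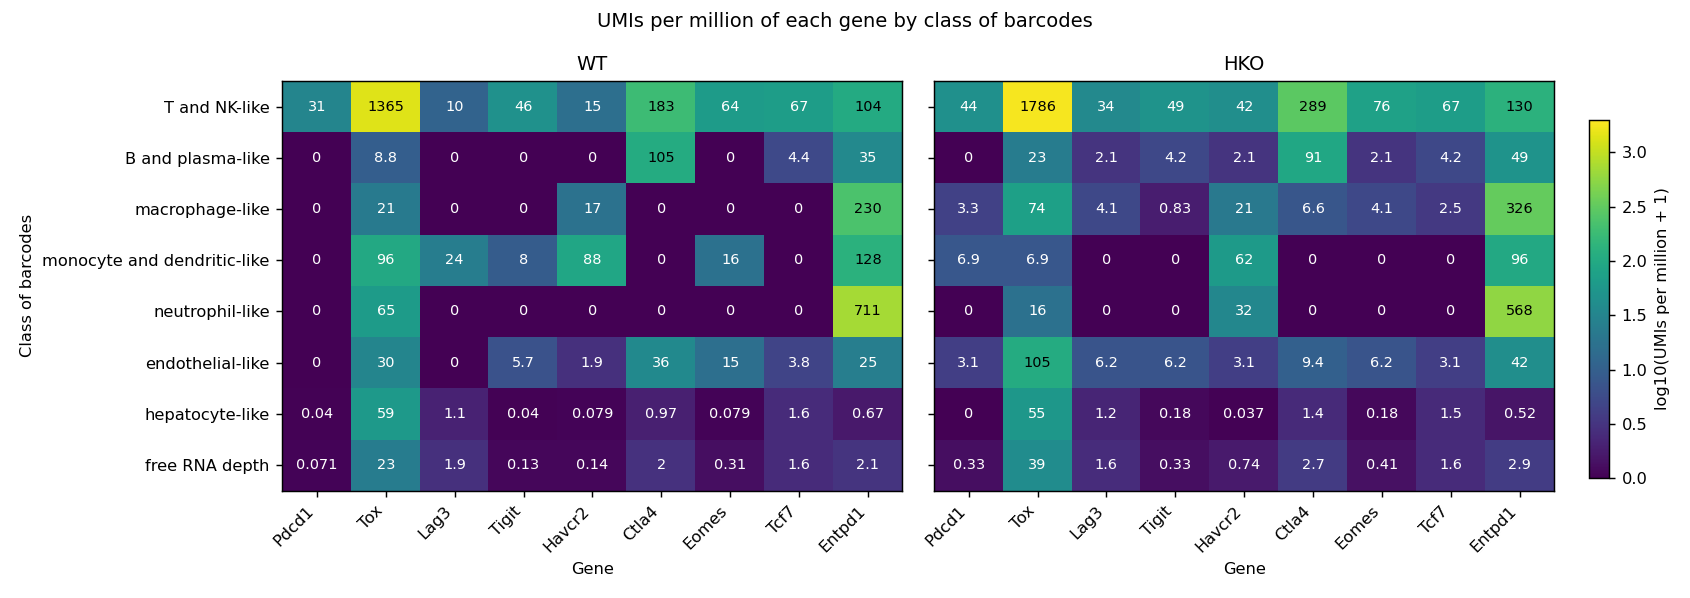
UMIs per 1000000 UMIs of each gene in classes of liver barcodes, in WT (left) and HKO (right), with the value printed in each cell and colour for log10 of the value plus 1. T and NK-like includes all 215 WT and 809 HKO barcodes, and sub-clusters with markers of several classes are not drawn. Pdcd1 is at 30.6 and 44.2 in T and NK-like barcodes and Entpd1 is highest in neutrophil-like ones.

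Other genes of the exhaustion program lay on both sides of 1. All 23 exhaustion partners were measured in Cd8-positive T barcodes, where 5 passed 2-fold upwards, beside 7.99% of all genes, and 2 downwards, beside 8.16%, and their median log2 ratio was 0.37 (-0.018 outside hepatocyte RNA). Among the 5 with the most UMIs, the chemokine gene Ccl5 had 3002 UMIs in WT and 7962 in HKO (ratio 1.71, 1.64 to 1.78), and the transcription factor gene Maf had 77 and 254, a ratio of 2.13 (1.64 to 2.78). Ikzf2 was at 1.57 (1.29 to 1.91), Ccl4 at 1.40 (1.22 to 1.61) and Id2 at 1.01 (0.828 to 1.23). Among other T barcodes 2 of 23 partners were higher, beside 6.56% of all genes, and 0 lower, beside 7.34%, with a median of 0.11, and Maf was at 0.884 (0.754 to 1.04). Of the 8 measured in NK barcodes 1 was higher and 1 lower, beside 18.6% and 13.2% of all genes, and Ccl5 had 5 UMIs (126 CPM) in WT and 138 (3145 CPM) in HKO there.

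Most memory and progenitor genes had intervals that include 1. Of the 11 measured in Cd8-positive T barcodes, 1 passed 2-fold upwards and 2 downwards, beside 7.99% and 8.16% of all genes, and their median log2 ratio was -0.16. Satb1 was at 2.24 (1.47 to 3.52) and Xcl1 at 0.462 (0.305 to 0.695), while Bach2, Il7r and Lef1 were between 0.895 and 0.972, each with an interval that includes 1. Among other T barcodes 0 of 13 passed 2-fold either way, beside 6.56% upwards and 7.34% downwards of all genes, and in NK barcodes 1 of 4 was higher and 1 lower, beside 18.6% and 13.2%. Of 11 cytotoxic effector genes 1 was higher by 2-fold in Cd8-positive T barcodes, Gzma at 2.69 (2.08 to 3.53), and 0 were lower, against the same shares of all genes. Gzmb was at 1.13 (0.862 to 1.49) and Gzmk at 1.40 (0.976 to 2.04). Among other T barcodes 2 of 12 were higher and 0 lower, and in NK barcodes 1 of 3 was higher, Gzma, with 0 WT and 29 HKO UMIs.

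Regulatory T cell genes were thin, and the counts given next stand beside the shares of all genes given above (7.99% and 8.16% in Cd8-positive T, 6.56% and 7.34% in other T barcodes). Only 4 of 8 were measured in Cd8-positive T barcodes, with 1 past 2-fold upwards, and 7 of 8 in other T barcodes, with 0 upwards and 1 downwards. The latter was Foxp3, the defining factor of regulatory T cells, with 10 WT and 3 HKO UMIs and a ratio of 0.175 (0.0309 to 0.679), named after its value was seen. In NK barcodes 0 of 8 were measured. Icos, the costimulatory receptor, was at 1.58 (0.921 to 2.80) in Cd8-positive T and 1.26 (0.990 to 1.60) in other T barcodes. Of the other receptors of the family, 1 of 11 passed 2-fold upwards in Cd8-positive T, 1 of 11 in other T and 0 of 1 in NK barcodes, and 0 downwards in any. Cd28, the activating counterpart of CTLA-4, was at 1.70 (1.35 to 2.16) in Cd8-positive T and 0.963 (0.821 to 1.13) in other T barcodes. Cd226, the counterpart of TIGIT, was at 0.880 (0.676 to 1.15) and 1.41 (1.22 to 1.64) on the scale of all UMIs. The former interval includes 1, so no opposition to Tigit was read from these ratios.

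The genes most like Pdcd1 across Cd8-positive T barcodes were Epha3, Samsn1, Maf, Sucla2, Setbp1, Ago3, Cstf3 and Rbm47, of 3414 genes with at least 20 UMIs in each library. Likeness was the lower, over both libraries, of the ratio of a gene's level in barcodes with Pdcd1 to that in barcodes without. Epha3 was 3.67 times (2.30 to 5.94) as high with Pdcd1 in WT and 3.15 times (1.94 to 5.09) in HKO. Maf was 2.82 times (1.76 to 4.56) and 2.55 times (1.96 to 3.30) as high. The genes most like Tcf7 were Klra7, Satb1, Klrk1, Cux1, Bbs9, Slco3a1, Gm26917 and Xcl1. Klra7 had 31 UMIs in WT barcodes with Tcf7 and 2 in those without, and was 6.94 times (3.25 to 14.8) as high with Tcf7 in HKO. Satb1 was 4.98 times (2.23 to 11.7) and 6.29 times (4.16 to 9.47) as high. Klra7, Klrk1 and Xcl1 are also NK cell genes.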

How the data were processed

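The values deposited by the authors were raw UMI counts per gene and barcode, written by Cell Ranger 7.1.0 per the file headers; the submitters' processing notes also name mm10, R 3.0 and Seurat 3. How barcodes were selected was not given in the sources used here, and the WT barcode sequences were not used here, so barcodes shared by the libraries were not counted. The libraries held 30078 WT and 20000 HKO barcodes with 130451427 and 52563185 UMIs.

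Barcodes with at least 500 UMIs, 300 genes and at most 50% mitochondrial UMIs were kept (29620 WT, 18247 HKO). Counts were scaled to 10000, and 2000 variable genes without the members, 30 components and 15 neighbours gave Leiden clusters at resolution 1.0 (scanpy 1.11.5, igraph 0.11.9, Python 3.11.15). Barcodes with non-hepatocyte markers were clustered again. A sub-cluster took the class with the most markers, at least 3, and was called mixed where another class had at least 0.5 times as many. The rest were hepatocyte-like from 2 times the commonest depth of their library, and of free RNA depth below it. Barcodes with at least 2 markers and 3 UMIs of another class were left out as possible doublets. The classes screened were B and plasma, macrophage, endothelial, stellate, neutrophil and cholangiocyte. Monocyte and dendritic markers were not screened. At least 2 of them were in 10 of 54 WT and 4 of 194 HKO Cd8-positive T barcodes. In other T barcodes they were in 24 of 87 WT and 25 of 354 HKO. Scrublet's automatic threshold marked 11927 WT and 0 HKO barcodes, mostly of free RNA depth, so its score was used only as an alternative.

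UMIs were summed by class and divided by the class total, with exact Poisson intervals (levels), Clopper-Pearson intervals (shares) and conditional intervals (ratios). Hepatocyte RNA was estimated by scaling the profile of barcodes of free RNA depth by Alb. A count of 0 was put at 3. Thinned shares are expected values over all draws. Interval and thinning functions were tested on simulated data. The members and gene lists (exhaustion partners, memory and progenitor, cytotoxic effector, regulatory T, other receptors of the family, ligands of the receptors) were chosen with earlier results of these data known. All 9 members are described. From each other list at most 5 genes per class, those with the most UMIs, could be named, and 8 genes most like Pdcd1 and Tcf7 by the rule given with them; NK markers and ligands of other classes were named after their values were seen. Apart from naming the gene with the most UMIs, differences between genes in level are not compared. Gene positions are from GENCODE M21.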

Additional observations from a re-analysis of the deposited data

Results flagged for a closer look

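Tigit was singled out because its ratios in the T cell classes lay on opposite sides of 1, each with an interval that excludes 1 on the scale of all UMIs. The HKO over WT ratio was 2.18 (1.15 to 4.41) in Cd8-positive T barcodes and 0.583 (0.357 to 0.952) in other T barcodes. With marker genes alone and no clusters, which enlarged the WT class far more than the HKO one, the ratio of other T barcodes turned to 1.46 (0.896 to 2.37). Its direction thus rests on how barcodes were assigned. The difference between the classes was not tested, since each genotype had 1 library. Outside hepatocyte RNA the ratios were 1.67 (0.884 to 3.38) and 0.441 (0.270 to 0.720). Within sub-cluster 0 alone the ratio was 1.15 (0.675 to 2.01) over all UMIs and 0.920 (0.539 to 1.61) outside hepatocyte RNA. Without the highest barcode of each library the ratio over all UMIs was 2.53 (1.25 to 5.68) in Cd8-positive T and 0.695 (0.409 to 1.19) in other T barcodes. A Cd8 UMI is needed for the first class, and median depth was 7114 UMIs in WT and 2760 in HKO Cd8-positive T barcodes; the part of depth in this split was not tested.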

How the results depend on the processing

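With the total less hepatocyte RNA as denominator, the receptor sum ratio was 1.86 in Cd8-positive T and 0.756 in other T barcodes, and Tox in other T barcodes turned to 0.906. With at least 2 different T core genes, the receptor sum of other T barcodes was at 0.831. With marker genes alone and no clusters, which took in 375 WT and 458 HKO other T barcodes, it was at 2.35 and Tigit turned to 1.46. The main setting had 87 and 354 such barcodes, and the cause was not tested. Sub-cluster 0 alone gave 1.68 for the Cd8-positive T receptor sum. In Cd8-positive T barcodes every other alternative, among them thinning, the Scrublet score and leaving out the highest barcode, gave between 2.23 and 2.66. All 54 WT and 194 HKO barcodes of this class reached the depth used for thinning. Thinning and equal weights therefore give the same ratio there and are not separate checks. A filter on UMIs at that depth leaves the class unchanged and repeats the main value by construction. In NK barcodes the sum rested on 6 HKO UMIs against 0 put at 3, a ratio of 1.81 (lower counting limit 1.06) that lay between 1.19 and 2.01 for this class, was 8.68 with marker genes alone (30 WT and 66 HKO barcodes), and was a ratio of 2.27 in the NK-led sub-cluster. Among single members 13 ratios left the interval of their main value and 2 whose main interval excludes 1 turned direction, as given, while 204 stayed within it. These counts include the settings that repeat each other in Cd8-positive T barcodes. Ratios whose main interval includes 1 also crossed 1, among them Ctla4 (2.31), Tcf7 (1.97) and Entpd1 (2.16) of other T barcodes with marker genes alone, and Tcf7 in Cd8-positive T (0.884) and Eomes in other T barcodes (0.866) outside hepatocyte RNA. With at least 30 UMIs required, the median log2 ratio of the receptors in other T barcodes went from 0.69 to -0.042. Thinned shares left the interval of the counted share in 68 cases, including the other share alternatives, and 94 stayed. Filters on UMIs and mitochondrial share were applied after clustering. No paired analysis was possible because each group had 1 library. With 54 WT Cd8-positive T barcodes and 8 to 23 UMIs of Lag3, Tigit, Havcr2 and Pdcd1 there, counting error limits each receptor's ratio.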

Other observations

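Ligands of the receptors were read in the other classes of barcodes. Cd274, which encodes the PD-1 ligand PD-L1, was at 148 WT and 258 HKO CPM in macrophage-like barcodes, from 98 and 312 UMIs. B and plasma-like barcodes had 78.8 and 171 CPM of it, and hepatocyte-like barcodes 1.13 and 1.48, while monocyte and dendritic-like ones ran the other way, at 265 and 165. Cd86, a ligand of CTLA-4 and CD28, was at 372 and 669 in macrophage-like barcodes and at 0.635 and 0.851 in hepatocyte-like ones, but at 787 and 418 in monocyte and dendritic-like ones and at 859 and 448 where macrophage and monocyte markers were mixed. H2-Aa, an MHC class II gene whose product LAG-3 binds, was at 788 and 2130 in macrophage-like barcodes, and at 482 and 480 in monocyte and dendritic-like ones. Lgals9, which encodes the TIM-3 ligand galectin-9, was higher in barcodes of free RNA depth, at 672 and 375, than in T and NK-like ones, at 327 and 177. Of the 15 ligands, 14 were measured in Cd8-positive T barcodes, with 4 past 2-fold upwards, beside 7.99% of all genes, and 2 downwards, beside 8.16%. Among other T barcodes 13 were measured, with 0 higher and 1 lower, beside 6.56% and 7.34%, and in NK barcodes 2 were measured and 0 passed 2-fold, beside 18.6% and 13.2%.

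The barcodes of the T and NK-like sub-clusters without a T core gene, 55 WT and 221 HKO, also held members. Ctla4 was at 94.5 and 305 CPM there, a ratio of 3.22 (2.01 to 5.42), and 2.18 (1.36 to 3.67) outside hepatocyte RNA. Tox was at 1607 and 2214. Median depth was 4018 and 1445 UMIs, and hepatocyte RNA made up 63.3% and 45.8% of UMIs, so T receptor transcripts could be missed in them. In the 458 WT and 1753 HKO barcodes that failed the filters, no member was above its level in barcodes of free RNA depth by its counting interval, and Pdcd1 had 1 UMI in each library.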
